A study of Mus musculus with 12 samples.

Results

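Gene expression was compared between CD8+ T cells expanded with dichloroacetate (DCA) and untreated CD8+ T cells of the same mice in the first of the study's experiments. These were 6 of the 12 bulk RNA sequencing libraries of the study, chosen by their labels, and all 13526 genes with enough counts in them were tested. Each of 3 mice gave 1 untreated and 1 DCA library, so there were 3 libraries a group. Whole spleens were stimulated for 24 hours with a cognate peptide, at 250 nM SIINFEKL for OT-1 cells, and expanded in medium with IL-2 for 6 further days. The DCA group had 5 mM DCA during the expansion and the untreated group did not. Cells were sorted for CD8 on day 7 and lysed, and cDNA was amplified over 15 cycles with a SmartSeq kit. Both groups carry the strain tag OT-1 and the genotype C57BL/6-Tg(TcraTcrb)1100Mjb/J, a transgenic mouse whose T cells share 1 T cell receptor against an ovalbumin peptide. No age was given in the labels used here. The sample titles name Pmel-1 cells instead, so title and tags go against each other. The title of the series gives the aim as redirecting glucose use during expansion to limit metabolic stress.

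DCA is a small acid that inhibits the pyruvate dehydrogenase kinases. These kinases switch off pyruvate dehydrogenase, the mitochondrial complex that turns pyruvate from glycolysis into acetyl-CoA. Activated CD8+ T cells take up much glucose and release a large part of it as lactate while they grow and divide, a state driven in part by the transcription factors MYC and HIF-1. Resting and memory T cells grow little, and carry transcription factors such as TCF-1 and KLF2.

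The libraries held 28039699 to 41051066 counts and detected 18382 to 19551 genes. Values are given as normalised read counts (CPM) after TMM scaling, in the order of mouse 1, 2 and 3, and an unlabelled number in parentheses after a gene is its log2 fold change (DCA minus untreated). Trbv12-1, a V beta 5 segment of the kind the OT-1 receptor uses, was at 176, 175 and 202 CPM untreated and 209, 189 and 180.3 CPM with DCA. Trbv14, which the pmel-1 receptor uses, was counted 0 times in each library, which allows up to 0.0731 to 0.107 CPM (3 counts of the total, counting error only). Cd8a, the CD8 alpha chain, was at 354, 283 and 342 CPM untreated and 331, 311 and 371 CPM with DCA, and Cd4 reached at most 0.638 CPM. The B cell markers Ms4a1, Pax5, Cd22 and Blk had 0 counts in all 6 libraries, as had the macrophage markers Lyz2, Csf1r, Adgre1, C1qa and C1qb. Other markers of these lists were counted, with Ighm at 218.5 to 389.9 CPM, Cd79b at 12.6 to 38.1 CPM, Ighd at 5.53 to 20.97 CPM and Cd68 at 6.16 to 27.4 CPM of library totals. Gamma-delta T cell markers, 4 genes of which 0 were called, were also counted. They summed to 431.9, 547.5 and 729.8 CPM untreated and 382.2, 500.1 and 816.3 CPM with DCA, lowest in mouse 1 and highest in mouse 3. Some measures of RNA composition moved with the group. Mitochondrially encoded genes took 1.01% to 1.14% of the counts untreated and 1.32% to 1.58% with DCA. Rn18s-rs5, a copy of ribosomal RNA sequence, was at 619.7, 774 and 631 CPM untreated and 3577, 1471 and 1386 CPM with DCA, highest in DCA mouse 1. The part of these differences in the results below was not tested. In bulk samples such as these, fewer cells of a type and less RNA per cell cannot be told apart.

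Many genes differed between DCA and untreated cells, mostly by less than 2-fold. A gene is called here when its adjusted p is under 0.05 in edgeR's quasi-likelihood test. Calls were made for 1251 of 13526 genes (9.25%). With DCA, 557 of them rose (4.12%) and 694 fell (5.13%). Before adjustment, 3468 genes had a p under 0.05. Called genes that rose had a median log2 fold change of 0.89 and a median untreated level of 12.1 CPM. Those that fell had a median of -0.51 and were much more abundant genes, with a median untreated level of 118 CPM against 9.95 CPM for all genes tested. Only 291 calls (2.15%) reached an absolute log2 fold change of 1, of which 249 were higher and 42 lower. In 1250 of the 1251 called genes the libraries of the 2 groups did not overlap, so a gap adds little to a call. Among all genes tested, the groups did not overlap with DCA above in 15.4% and with DCA below in 15.4%. The split of the calls depended on the scaling. Cyclic loess scaling and limma gave 601 higher and 494 lower calls, or 54.9% higher against 44.5% with TMM. The median log2 fold change of all genes was 0.04 with TMM and -0.00 after cyclic loess.

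**Figure D1:**
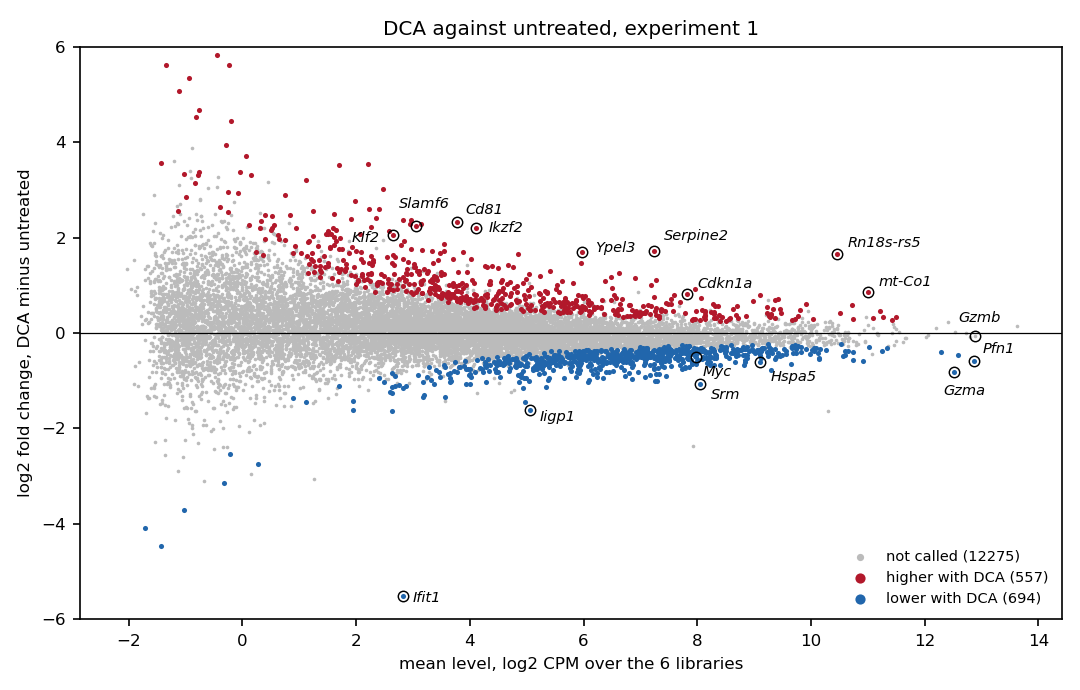
Log2 fold change of each tested gene (DCA minus untreated) against its mean level in log2 CPM over the 6 libraries; red and blue points are called higher and lower, grey points are not called, and circles mark named genes. The 694 lower calls sit mainly at high levels and small changes, the 557 higher calls reach low levels and larger changes, and 7 genes lie outside the vertical axis.

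The 3 mice did not contribute evenly. The first principal component (35.8% of the variance) separated the groups, with scores of -44.8 to -23.8 untreated and 29.9 to 44.4 with DCA. On this component the untreated library of mouse 3 lay nearest to the DCA libraries. On the third (16.1%) it was at 49.4 and the DCA libraries at -12.0 to 6.30. The second component (18.4%) placed the 2 libraries of each mouse close together. Untreated and DCA scores on it were 34.4 and 37.3 in mouse 1, -20.1 and -24.7 in mouse 2 and -13.2 and -13.7 in mouse 3. Among called genes that rose, the median log2 difference within a mouse was 0.97 in mouse 1, 0.95 in mouse 2 and 0.62 in mouse 3. Among those that fell it was -0.65, -0.49 and -0.39. Mouse 3 had the smallest of the 3 differences for 61.4% of higher and 63.4% of lower calls. Without untreated replicate 3, 1156 genes were called. Fewer genes were called without untreated replicate 1 (213), untreated replicate 2 (304), DCA replicate 1 (393), DCA replicate 3 (752) or DCA replicate 2 (763). In all, 184 genes, 78 higher and 106 lower, were called with all libraries and in each of these 6 fits, and genes marked below as called throughout are among them. The other called genes whose adjusted p is printed below lost their call in 1 or more of them. Counts within the lists shrank with the same libraries.

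The 35 gene lists ranged in median log2 fold change from -0.42 to 0.47, against 0.04 for all genes tested. Ribosome biogenesis, protein folding in the endoplasmic reticulum and mitochondrial biogenesis had the lowest medians. Mitochondrially encoded subunits, inhibitory receptors, hypoxia-inducible factor targets and p53 targets had the highest.

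**Figure D2:**
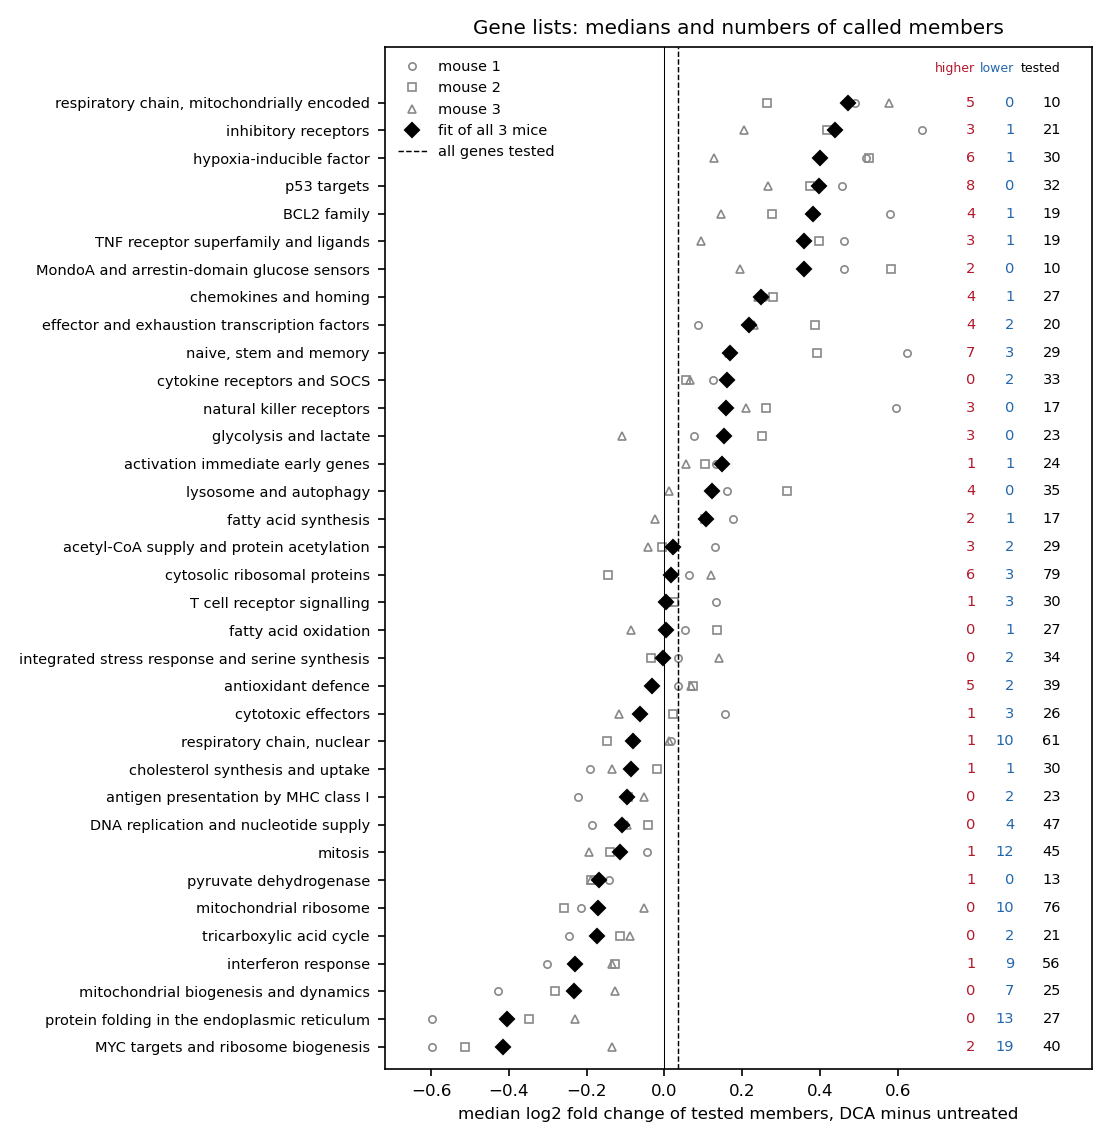
Median log2 fold change (DCA minus untreated) of the tested members of each gene list, with black diamonds for the fit over 3 mice, open symbols for the median difference within each mouse and a dashed line for all genes tested; numbers at the right count members called higher, called lower and tested. MYC targets and ribosome biogenesis lie lowest, at -0.42 with 19 of 40 members called lower, and mouse 3 lies nearer to 0 than mice 1 and 2 in that list and in the list of hypoxia-inducible factor targets.

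Many genes through which MYC drives ribosome production fell. Of 40 tested members of the list of MYC targets and ribosome biogenesis, 19 fell and 2 rose, or 52.5% called against 9.25% of all genes. The median log2 fold change was -0.42. Myc itself was at 326, 287 and 275 CPM untreated and 204, 216 and 207 CPM with DCA. The 2 groups did not overlap (log2 fold change -0.50, SE 0.08, adjusted p = 0.00779), as was the case for 15.4% of all genes in this direction. Max, the partner through which MYC binds DNA, fell by 0.69 on the log2 scale. Srm encodes spermidine synthase, a classical MYC target of polyamine synthesis, and was at 398, 356 and 323 CPM untreated and 137, 168 and 209 CPM with DCA. Its lowest untreated library was over 1.5 times its highest DCA library (log2 fold change -1.07, SE 0.14, adjusted p = 0.00419). Rrp9, a protein of the U3 small nucleolar particle that processes ribosomal RNA, fell from 59.5, 60.97 and 45.3 CPM to 24.8, 30.3 and 29.1 CPM (-0.98, adjusted p = 0.00616). Outside the list, Wdr18, a factor of large ribosomal subunit maturation, fell from 219, 218 and 188 CPM to 86.6, 106 and 117 CPM (-1.02, adjusted p = 0.00333). Myc, Srm, Rrp9 and Wdr18 were called throughout. Further members that fell were Noc4l, Bop1, Bysl, Nop2, Mybbp1a, Pno1, Nop16, Nop58, Wdr43 and nucleolin, Ncl, all with log2 fold changes from -0.83 to -0.37. The 2 members that rose, Mxi1 and Mxd4, encode MAX partners that oppose MYC. Mxi1 was at 23.4, 20.96 and 28.2 CPM untreated and 47.02, 35.8 and 42.1 CPM with DCA (log2 fold change 0.78, adjusted p = 0.0137), and Mxd4 was at 1.48, 1.69 and 4.14 CPM and 7.38, 4.73 and 8.27 CPM (1.48, adjusted p = 0.0457). These calls held in 3 and 1 of the 6 fits that left out a library. For the list, 3 members were called lower without untreated replicate 1 or 2, 4 without DCA replicate 1, 9 without DCA replicate 2 and 23 without untreated replicate 3, with medians between -0.52 and -0.36.

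Genes of the cytosolic ribosomal proteins themselves were called in both directions. Of 79 tested, 6 rose and 3 fell, or 11.4% called against 9.25% of all genes, with a median of 0.02. Rps19, a small subunit protein, was at 2473, 2672 and 2492 CPM untreated and 3459.9, 3049 and 3161 CPM with DCA (0.34, adjusted p = 0.0119). Rps27 rose from 477, 575 and 483 CPM to 765, 641 and 643 CPM (0.42, adjusted p = 0.0262). Rpl29 was at 638, 637 and 559 CPM and 477, 444 and 512 CPM (-0.36, adjusted p = 0.0251). With a term for each mouse 3 members were called higher and 0 lower and an adjusted p of 0.0565 for Rpl29. After cyclic loess 13 rose and 0 fell, with a median of 0.12. Without DCA replicate 1 or untreated replicate 1, 0 were called in either direction. These genes have many processed copies in the genome, so their counts are uncertain. The translation factor genes Eif5a, whose protein carries a spermidine-derived residue, and Eef1a1 went opposite ways. Eif5a fell from 5899, 5725 and 5385 CPM to 3795, 4654 and 4457 CPM (-0.40, adjusted p = 0.0119), and Eef1a1 rose from 2267, 2102 and 2181 CPM to 2843, 2567 and 2843 CPM (0.33, adjusted p = 0.0119).

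Genes of protein folding fell in the endoplasmic reticulum. Of 27 tested members of that list, 13 fell and 0 rose (48.1% called against 9.25% of all genes), with a median of -0.41. Hspa5 encodes BiP, the main chaperone of that compartment, and was at 712, 689.9 and 599.5 CPM untreated and 401, 453 and 460.5 CPM with DCA. All DCA libraries lay below all untreated ones, as in 15.4% of all genes (log2 fold change -0.61, SE 0.09, adjusted p = 0.0056). Herpud1, a component of the degradation of misfolded proteins, fell from 283, 251 and 272 CPM to 131, 169 and 177 CPM (-0.76, adjusted p = 0.0056). Dnajb11, a co-chaperone of BiP, fell from 305, 266 and 249 CPM to 154, 171 and 179 CPM (-0.70, adjusted p = 0.00456). Pdia3, a disulfide isomerase that also loads MHC class I, fell from 1379, 1370 and 1246 CPM to 823, 989 and 976 CPM (-0.52, adjusted p = 0.00698). All 4 genes were called throughout. Xbp1, the transcription factor of the unfolded protein response, was among the 13 (-0.50), as were Creld2 (-0.73), Sdf2l1 (-0.55), Manf (-0.48) and Hsp90b1 (-0.33). Xbp1 also marks plasma cells. That marker list summed to 320 to 366 CPM untreated and 228 to 281 CPM with DCA (of library totals), nearly all of it Xbp1, with Tnfrsf17 at 0 counts. The integrated stress response, a related program, gave few calls. Of 34 tested members of that list (5.88% called against 9.25% of all genes), 2 fell and 0 rose, both enzymes of serine and one-carbon metabolism. Phgdh, the first enzyme of serine synthesis, fell from 200, 177 and 171 CPM to 128, 141 and 143 CPM (-0.41, adjusted p = 0.0202), and Shmt1 from 73.2, 83.4 and 49.4 CPM to 38.4, 47.3 and 41.2 CPM (-0.70, adjusted p = 0.0335). For the folding list, 4 members were called lower without untreated replicate 1, 6 without untreated replicate 2, 8 without DCA replicate 1 and 11 to 13 in the other 3 fits.

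Cytosolic folding and protein breakdown were examined with complete families that were assembled after the values were seen, so their counts are a description. Of the 8 subunits of the CCT chaperonin, which folds actin and tubulin, 7 fell and 0 rose, with log2 fold changes from -0.53 for Cct7 to -0.34 for Cct4. The eighth, Cct2, was at 0.08. Of 18 genes of HSP90, HSC70 and their co-chaperones, 10 fell and 1 rose. Stip1 (-0.67), Fkbp4 (-0.65), Ahsa1 (-0.48) and Hspa8 (-0.56), which encodes HSC70, were among those that fell. The HSP90 genes themselves, Hsp90aa1 (0.03) and Hsp90ab1 (-0.02), were not called. Fkbp5, a co-chaperone gene induced by glucocorticoids, rose (0.75). Of 32 genes of the 26S proteasome, 15 fell and 0 rose. These were 14 of the regulatory particle, led by Adrm1 (-0.87), Psmd12 (-0.62) and Psmd2 (-0.55), and 1 of the catalytic core, Psmb3 (-0.29, adjusted p = 0.0695 with a term for each mouse). With a term for each mouse, 5 chaperonin, 9 co-chaperone and 8 proteasome genes were called lower. After cyclic loess 2 chaperonin and 7 proteasome genes were. Without untreated replicate 1, untreated replicate 2 or DCA replicate 1, 4 proteasome and 1 or 2 chaperonin genes were called lower.

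**Figure D3:**
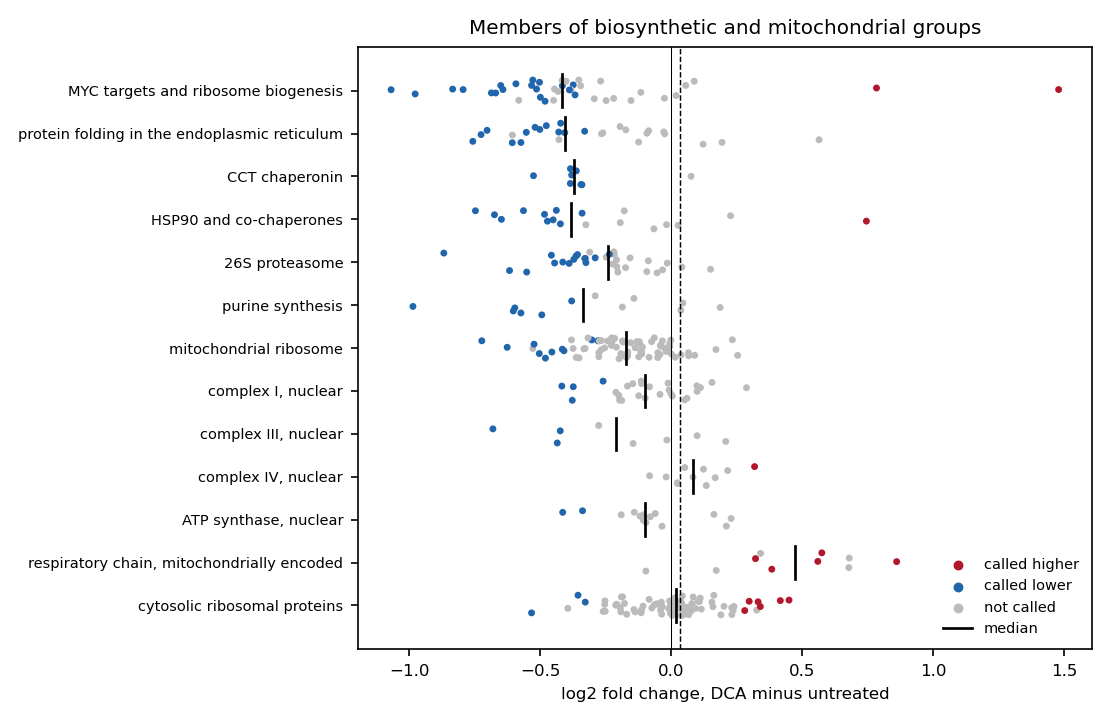
Log2 fold change (DCA minus untreated) of each tested member of 13 gene groups; points are genes, colours give the call, black bars are group medians and the dashed line is the median of all genes tested. Ribosome biogenesis, folding, chaperonin and proteasome genes lie mostly left of 0, while mitochondrially encoded subunits lie mostly right of it and cytosolic ribosomal proteins centre at 0.02. The chaperonin, HSP90, proteasome, purine synthesis and single-complex groups were assembled after the values were seen, so their place is a description.

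Single enzymes that make nucleotide bases fell, while genes of DNA replication and nucleotide supply were called at near the share of all genes. Of 47 tested genes of DNA replication and nucleotide supply, 4 fell and 0 rose, or 8.51% called against 9.25% of all genes, with a median of -0.11. Dhodh and Umps carry out the last steps of pyrimidine synthesis, the first of them at the mitochondrial inner membrane. Dhodh was at 24.1, 22.8 and 18.3 CPM untreated and 11.1, 13.7 and 5.91 CPM with DCA (-1.08, adjusted p = 0.0326), a call that held in 3 of 6 fits without a library. Umps was at 199, 202 and 155 CPM and 93.2, 111 and 98.4 CPM (-0.88, SE 0.12, adjusted p = 0.00419), and Pold2, a subunit of DNA polymerase delta, at 199, 189 and 181 CPM and 105, 122 and 108 CPM (-0.76, SE 0.09, adjusted p = 0.00333). Umps and Pold2 were called throughout. Among 12 genes of purine synthesis, 6 fell and 0 rose, or 50.0% called against 9.25% of all genes. This family was also assembled after the values were seen, so its count is a description. Gart (-0.99), Atic (-0.60), Pfas (-0.60), Adsl (-0.57), Ppat (-0.49) and Prps1 (-0.38) fell, while Paics was at 0.04. The 6 subunits of the MCM helicase that opens replication origins, Mcm2 to Mcm7, were not called, at -0.32 to 0.07.

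Several genes of mitosis fell, while the proliferation marker gene Mki67 was not called. Of 45 tested mitosis genes, 12 fell and 1 rose (28.9% called against 9.25% of all genes), with a median of -0.11. Plk1, a kinase that drives mitotic entry and exit, was at 79.5, 78.8 and 73.7 CPM untreated and 43.5, 39.9 and 51.7 CPM with DCA (-0.78, SE 0.12, adjusted p = 0.00616). Cdc20 and Ube2s act with the anaphase-promoting complex. Cdc20 fell from 178, 148 and 148 CPM to 91.7, 79.8 and 96.04 CPM (-0.83, adjusted p = 0.00419), and Ube2s from 77.8, 69.9 and 79.4 CPM to 37.9, 38.99 and 51.1 CPM (-0.83, adjusted p = 0.0068). In all 3 genes the groups were well apart, and all 3 were called throughout. Pttg1, which encodes securin, a substrate of the same complex, rose from 135, 143 and 130 CPM to 210, 193 and 180 CPM (0.51, adjusted p = 0.0078). Mki67 was at 248, 232 and 232 CPM and 299, 238 and 253 CPM and overlapped between groups (adjusted p = 0.356). With a term for each mouse 6 mitosis genes were called lower, after cyclic loess 5, and in the fits without 1 library 3 (untreated replicate 1) to 9 (untreated replicate 3).

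The promoters of the mitosis genes were read from a RefSeq table (GRCm38.p6), which covers 250 bases before to 50 bases after each gene's start, because a short motif is known to be shared by genes that peak in mitosis. The cell cycle homology region, TTTGAA on either strand, occurred in 25 of 37 mitosis genes in the table (67.6%) and in 20.2% of all 27025 genes. Of 9 called lower and in the table, 7 held it. Prc1 encodes a spindle midzone protein and Cdk1 the kinase of mitotic entry. The 150 bases before the start are printed for Cdc20 (chr4:118437344-118437493, minus strand), Cdk1 (chr10:69352913-69353062, minus strand) and 1 of the listed starts of Prc1 (chr7:80294326-80294475, plus strand), with the motif in capitals. It starts 18 bases before the start in Cdc20, 71 and 15 bases before it in Cdk1 and 30 bases before it in Prc1. Cdk1 was at -0.25 and Prc1 at -0.31, both called lower, with adjusted p of 0.106 and 0.0788 with a term for each mouse. A match is a description of these letters and no evidence of binding.
Cdc20: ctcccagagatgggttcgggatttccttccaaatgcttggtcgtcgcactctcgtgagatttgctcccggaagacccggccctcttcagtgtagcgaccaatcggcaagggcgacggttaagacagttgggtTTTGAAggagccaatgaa
Cdk1: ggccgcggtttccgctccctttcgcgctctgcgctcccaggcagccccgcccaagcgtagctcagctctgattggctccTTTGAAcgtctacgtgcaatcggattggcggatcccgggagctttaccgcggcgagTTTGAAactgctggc
Prc1: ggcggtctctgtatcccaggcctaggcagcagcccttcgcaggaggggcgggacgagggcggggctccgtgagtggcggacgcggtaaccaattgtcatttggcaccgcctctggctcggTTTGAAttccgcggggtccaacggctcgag

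Several p53 targets rose, among them the gene of a cell cycle inhibitor. Of 32 tested p53 targets, 8 rose and 0 fell, with a median of 0.40. Cdkn1a encodes the cell cycle inhibitor p21 and was at 147, 159 and 187 CPM untreated and 265, 322 and 283 CPM with DCA (log2 fold change 0.82, SE 0.11, adjusted p = 0.00419). Zmat3, an RNA-binding protein induced by p53, rose from 4.66, 4.51 and 4.93 CPM to 18.3, 13.3 and 14.8 CPM (1.72, adjusted p = 0.00333). Trp53inp1, which supports p53-dependent arrest, rose from 12.7, 10.6 and 18.3 CPM to 49.8, 37.4 and 43.6 CPM (1.65, adjusted p = 0.00419). Ccng1, which encodes cyclin G1, rose from 136, 143 and 149 CPM to 218, 208 and 228 CPM (0.61, adjusted p = 0.00419). In these 4 genes every DCA library lay above every untreated one, as in 15.4% of all genes, and all 4 were called throughout. Mdm2, which degrades p53, was at 58.5, 67.9 and 66.3 CPM and 84.1, 116 and 80.4 CPM (0.54, adjusted p = 0.0395), and lost its call in each fit without 1 library. Trp53 itself was at -0.28 and not called. The death effector gene Bax was at 237, 254 and 233 CPM and 180.2, 229.6 and 229 CPM (adjusted p = 0.291). Bbc3, which encodes the death activator PUMA, was at 2.01, 1.86 and 2.18 CPM and 5.43, 3.61 and 3.93 CPM (adjusted p = 0.0407, and 0.0641 with a term for each mouse). Among 19 tested BCL2 family genes, 4 rose and 1 fell (26.3% called against 9.25% of all genes), and 2 and 1 with a term for each mouse. Bid, a death activator cut by caspase-8 and granzyme B, fell from 78.4, 71.8 and 72.8 CPM to 32.9, 54.2 and 51.8 CPM (-0.68, adjusted p = 0.0309). The survival gene Mcl1 was at 44.8, 46.7 and 46.5 CPM and 67.02, 59.9 and 60.2 CPM (adjusted p = 0.0245, and 0.055 with a term for each mouse). For the p53 list, 4 members were called higher without untreated replicate 1, 5 without untreated replicate 2 or any one DCA replicate and 6 without untreated replicate 3.

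Further inhibitors of growth were found among complete families listed after the values were seen. Of 9 tested CDK inhibitor and pocket protein genes, 4 rose and 1 fell. Besides Cdkn1a these were Cdkn1b, which encodes p27 (0.96), and the retinoblastoma family genes Rb1 (0.80, adjusted p = 0.0561 with a term for each mouse) and Rbl2 (0.81), while Cdkn2b, the gene of p15, fell (-1.11). On the opposite side, the cyclin D3 gene Ccnd3 (-0.60) and its kinases Cdk4 (-0.37) and Cdk6 (-0.38, adjusted p = 0.0795 with a term for each mouse) fell, 3 of 7 tested genes of that group. The antiproliferative genes Ypel5 (0.77) and Btg1 (0.81) rose. Ypel3, of the same small zinc-binding family, rose from 23.3, 21.99 and 43.6 CPM to 99.2, 106 and 85.02 CPM (1.71, SE 0.23, adjusted p = 0.00456), and was called throughout.

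In mitochondria, several transcripts of the organelle's own genome rose, while most of the tested nuclear genes were not called. The calls among the latter were mostly lower with TMM scaling, and for the respiratory chain mostly higher after cyclic loess. Of 10 tested subunits encoded by mitochondrial DNA, 5 rose and 0 fell (50.0% called against 9.25% of all genes), with a median of 0.47. The complex IV subunit mt-Co1 was at 1492, 1374 and 1511 CPM untreated and 3023, 2461 and 2465 CPM with DCA, with the groups far apart (log2 fold change 0.86, SE 0.09, adjusted p = 0.00316). It was called throughout. The complex I subunit mt-Nd4 rose from 335, 367 and 309.6 CPM to 547, 428 and 517 CPM (0.56, adjusted p = 0.0104), and the complex III subunit mt-Cytb from 1867, 1987 and 1992 CPM to 2516, 2532 and 2260.1 CPM (0.32, adjusted p = 0.0152). The ribosomal RNA mt-Rnr2 was at 1981, 2225 and 1828 CPM and 3305, 2376 and 2578 CPM (0.45, adjusted p = 0.0354), highest in DCA mouse 1. mt-Nd1 was not called (-0.10). mt-Co2, mt-Co3 and mt-Atp6 stayed under 2 CPM on average, and nuclear copies of mitochondrial sequence can take reads from these genes. Without DCA replicate 1 or untreated replicate 1, 1 of the 10 was called higher, without DCA replicate 3, 3, and in the other 3 fits 4 or 5.

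Nuclear subunits of the respiratory chain gave 10 falls and 1 rise among 61 tested (18.0% called against 9.25% of all genes), with a median of -0.08. After cyclic loess the median was 0.02, with 11 called higher and 5 lower, so the direction of this list depended on the scaling. With a term for each mouse 6 were called lower, and without 1 library 2 (untreated replicate 1) to 8 (DCA replicate 3 or untreated replicate 3). Complex III held the largest falls. Cyc1, which encodes cytochrome c1, was at 439, 404 and 408 CPM untreated and 241, 249 and 291 CPM with DCA (-0.68, SE 0.09, adjusted p = 0.00419). Uqcrfs1, the Rieske protein, fell from 292, 295 and 295 CPM to 207, 224 and 227 CPM (-0.42, adjusted p = 0.00804). Both were called throughout, and after cyclic loess they were at -0.58 and -0.33 with adjusted p of 0.00558 and 0.0212. Sorted by complex after the values were seen, 3 of 8 complex III, 4 of 27 complex I, 2 of 14 ATP synthase and 0 of 11 complex IV genes were called lower. Modelled with a term for each mouse, these were 3, 1, 1 and 0. After cyclic loess 3 complex III, 0 complex I and 1 ATP synthase gene were lower, and 1, 2 and 3 were higher, with 5 of complex IV. Ndufa4, a subunit associated with complex IV, was at 325, 356 and 339.9 CPM and 430.3, 443 and 400.3 CPM (0.32, adjusted p = 0.0252, and 0.0548 with a term for each mouse).

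Genes that build mitochondria gave falls and no rises. Of 76 tested mitochondrial ribosomal proteins, 10 fell and 0 rose, or 13.2% called against 9.25% of all genes. Their median was -0.17 (-0.08 after cyclic loess). With a term for each mouse 6 fell, and 1 or 2 fell without untreated replicate 1, untreated replicate 2 or DCA replicate 1. Mrpl37 was at 136, 135 and 106 CPM untreated and 70.5, 80.6 and 77.9 CPM with DCA (-0.72, adjusted p = 0.00673). Of 25 tested genes of mitochondrial biogenesis and dynamics, 7 fell and 0 rose (28.0% called). Among them the import receptor gene Tomm20 fell from 831, 864 and 773 CPM to 575, 550 and 642 CPM (-0.48, adjusted p = 0.0078) and the import channel gene Tomm40 from 57.4, 65.5 and 43.1 CPM to 24.00, 28.4 and 33.99 CPM (-0.94, adjusted p = 0.0114). Mrpl37 and Tomm20 were called throughout. The matrix chaperones Hspd1 (-0.51), Hspa9 (-0.44) and Hspe1 (-0.41, adjusted p = 0.0503 with a term for each mouse) also fell. In the tricarboxylic acid cycle 2 of 21 tested genes fell and 0 rose, or 9.52% called against 9.25% of all genes. Mdh2, malate dehydrogenase, was at 1837, 1811 and 1753 CPM and 1161, 1367 and 1402 CPM (-0.46, adjusted p = 0.00804), and Idh3a, a subunit of isocitrate dehydrogenase, at 544, 545 and 537 CPM and 378, 443 and 435 CPM (-0.37, adjusted p = 0.0172). Acad9, an assembly factor of complex I, fell from 15.03, 11.5 and 15.4 CPM to 6.30, 6.43 and 7.13 CPM (-1.08, adjusted p = 0.0100).

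Of the kinases that DCA inhibits, the gene of 1 rose. Of 13 tested genes of the pyruvate dehydrogenase list, 1 rose and 0 fell, or 7.69% called against 9.25% of all genes. Pdk1, one of the kinases, was at 45.6, 46.2 and 59.9 CPM untreated and 75.97, 77.9 and 71.2 CPM with DCA (0.57, SE 0.12, adjusted p = 0.0200). The groups did not overlap, as in 15.4% of all genes in this direction, but the call held in 1 of 6 fits without a library. Pdk3 was at 111, 99.5 and 117 CPM and 98.4, 126 and 100.2 CPM and overlapped (adjusted p = 0.953). Per kilobase of gene length, Pdk3 was the highest of the kinases, at 42.8 ± 3.56 CPM untreated and 42.3 ± 6.09 CPM with DCA (SD, n = 3). Pdk1 followed at 6.50 ± 1.04 CPM and 9.64 ± 0.449 CPM per kilobase. Pdk2 was at 0.110 ± 0.139 CPM and 0.110 ± 0.0218 CPM per kilobase, and Pdk4 had 0 counts in all 6 libraries. Pdha1, the catalytic subunit that these kinases phosphorylate, was at 49.5, 53.8 and 53.6 CPM and 48.6, 53.7 and 46.9 CPM (adjusted p = 0.733). The pyruvate carrier gene Mpc1 was at 78.9, 80.9 and 88.3 CPM and 74.8, 71.9 and 73.5 CPM (adjusted p = 0.274).

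Genes of glycolysis and lactate gave 3 rises and 0 falls among 23 tested, or 13.04% called against 9.25% of all genes. Without DCA replicate 1 or 2, or untreated replicate 1 or 2, 0 were called in either direction. Without DCA replicate 3, 2 rose, and without untreated replicate 3, 3 rose. Aldoc, an aldolase isoform, was at 56.1, 54.5 and 113 CPM untreated and 176, 205 and 117 CPM with DCA (1.15, adjusted p = 0.0276), and the values of mouse 3 nearly met. Slc2a3, the high-affinity glucose transporter GLUT3, rose from 53.4, 72.2 and 88.2 CPM to 124, 126 and 104 CPM (0.73, adjusted p = 0.0213). Ldhb, the lactate dehydrogenase subunit of oxidative tissues, was at 5.77, 7.31 and 7.32 CPM and 10.03, 16.8 and 10.8 CPM (0.88, adjusted p = 0.0444), a call that held in 0 of 6 fits without a library. Ldha, its main counterpart, was at 1923, 1715 and 1789 CPM and 1543, 1739.6 and 1528 CPM (adjusted p = 0.163). Per kilobase, Ldha was at 546.5 ± 31.8 CPM untreated and 484.5 ± 35.6 CPM with DCA, and Ldhb at 4.33 ± 0.567 CPM and 7.98 ± 2.36 CPM (SD, n = 3). Hexokinase 2, Hk2, was at 211, 221 and 260.1 CPM and 219, 239.6 and 202 CPM, overlapping between groups (adjusted p = 0.733).

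Targets of hypoxia-inducible factor were mostly above 0 while the gene of its alpha subunit fell. Hif1a was at 158, 159 and 155 CPM untreated and 109.6, 115 and 104 CPM with DCA, with little spread within groups (-0.52, SE 0.08, adjusted p = 0.00657). It was the only faller among 30 tested members, and 6 rose (23.3% called against 9.25% of all genes), with a median of 0.40. Ankrd37, a small gene with a strong hypoxia response, was at 30.5, 26.4 and 41.2 CPM and 101, 99.2 and 72.99 CPM (1.48, SE 0.18, adjusted p = 0.00415). Hif1a and Ankrd37 were called throughout. The other 5 that rose were Pdk1, Mxi1, the mitophagy receptor gene Bnip3l, the oxygen sensor Egln1 (0.54) and the histone demethylase Kdm3a (0.53). Bnip3l was at 147, 119 and 216 CPM and 259.5, 271 and 227 CPM (0.65, adjusted p = 0.0455). The number that rose was 1 without DCA replicate 1 or untreated replicate 1 or 2, 3 without DCA replicate 2, 4 without DCA replicate 3 and 11 without untreated replicate 3.

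Txnip, an arrestin that limits glucose uptake and is induced by glucose through MondoA, rose from 47.1, 45.98 and 40.9 CPM to 82.2, 67.8 and 67.7 CPM (0.70, SE 0.12, adjusted p = 0.0078) and was called throughout. Its relative Arrdc4 was at 0, 0.781 and 0.756 CPM and 1.88, 2.21 and 1.84 CPM, apart in level but not called (adjusted p = 0.174). Tef, a circadian transcription factor of the same list, rose from 1.84, 2.27 and 2.63 CPM to 5.22, 6.33 and 4.03 CPM (1.21, adjusted p = 0.0275). These were 2 rises and 0 falls among 10 tested, or 20.0% called against 9.25% of all genes. The palindromic E-box letters CACGTG, to which MondoA partners bind, occurred in 4 of 11 promoters of the list (36.4%) and in 8.09% of all. Tef and Arrdc4 held it, while Txnip had 0 matches in this window.

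In lipid metabolism single enzymes changed. The desaturase gene Scd2 rose from 226, 259 and 255 CPM to 401, 377 and 352 CPM (0.61, SE 0.08, adjusted p = 0.00457). Scd1, its paralog, rose from 41.9, 57.6 and 56.7 CPM to 71.6, 80.4 and 75.3 CPM (0.54, adjusted p = 0.0298). Of 17 tested genes of fatty acid synthesis (17.6% called against 9.25% of all genes), these 2 rose and Elovl1 was called lower (adjusted p = 0.0422, and 0.0727 with a term for each mouse). Among 30 cholesterol genes, 6.67% were called against 9.25% of all genes. Sqle, squalene epoxidase, fell from 95.4, 100 and 98.4 CPM to 61.2, 67.5 and 67.3 CPM (-0.58, adjusted p = 0.00673) and the exporter gene Abcg1 rose from 12.2, 8.52 and 18.4 CPM to 27.1, 26.4 and 29.6 CPM (1.09, adjusted p = 0.0208). Scd2 and Sqle were called throughout. Of 27 genes of fatty acid oxidation (3.70% called against 9.25% of all genes), 1 was called, Acsl5 (adjusted p = 0.0456, and 0.0913 with a term for each mouse). Acly and Acss2, which make cytosolic acetyl-CoA from citrate and acetate, were not called (adjusted p = 0.563 and 0.150). Among 29 acetylation genes 3 rose and 2 fell, or 17.2% called against 9.25% of all genes. The acetyltransferase genes Ep300 (0.71, adjusted p = 0.0162) and Kat2b (0.78, adjusted p = 0.0214) and the deacetylase gene Hdac7 (0.65, adjusted p = 0.0111) rose. The deacetylase genes Hdac4 (-0.57, adjusted p = 0.041) and Hdac2 (-0.35, adjusted p = 0.0248, and 0.0611 with a term for each mouse) were called lower.

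**Figure D4:**
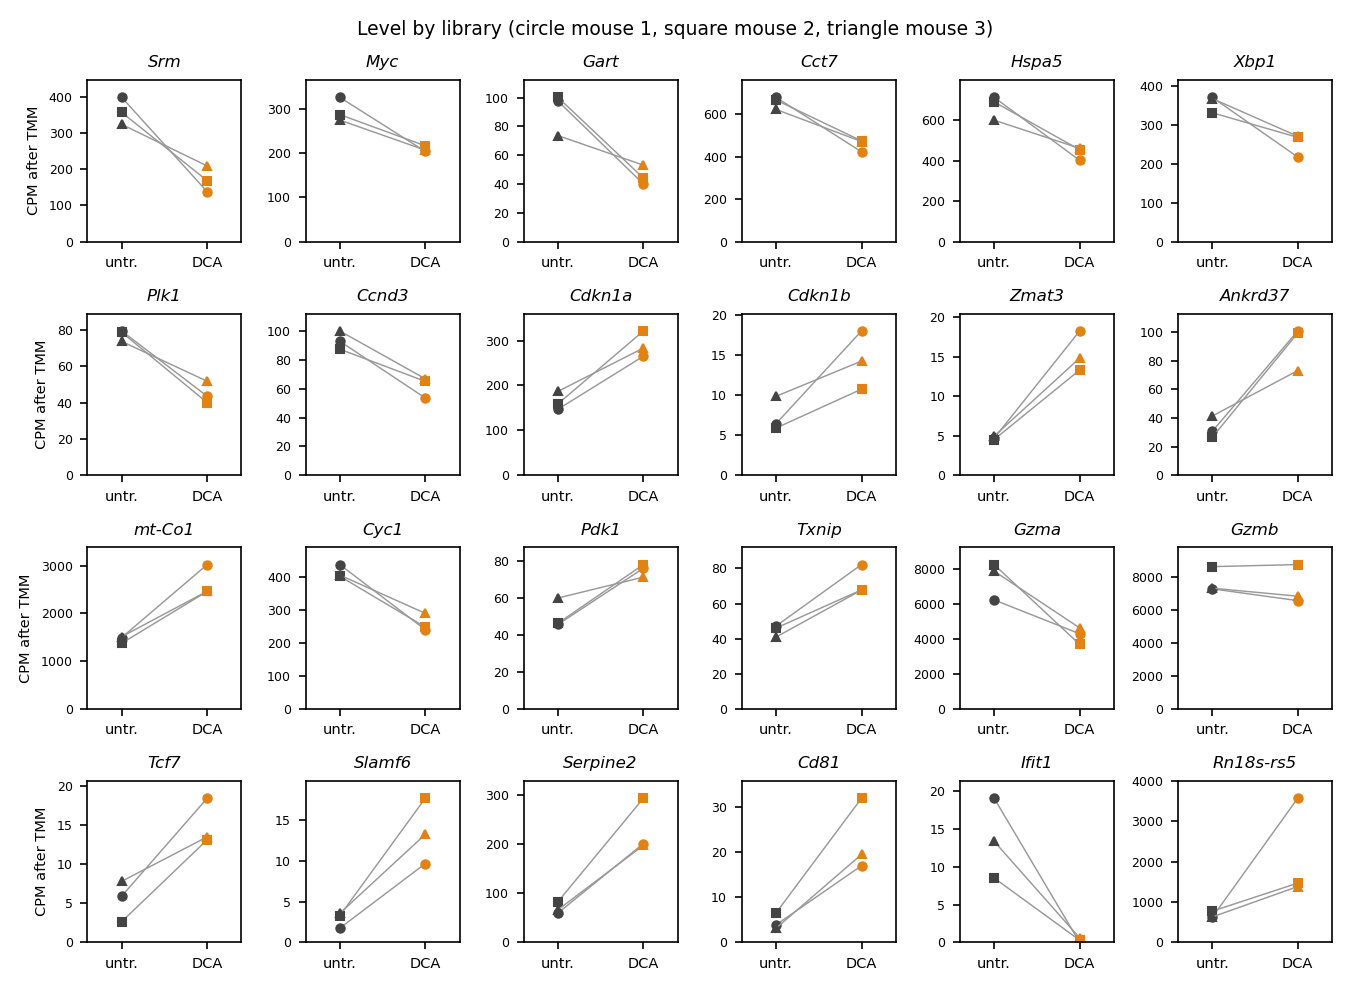
Level of 24 genes in each library, in CPM after TMM scaling on a linear axis that starts at 0, with lines joining the untreated and DCA library of each mouse. Biosynthetic and cell cycle genes such as Srm, Hspa5 and Plk1 fell in all 3 mice, Cdkn1a, Zmat3, Slamf6 and Serpine2 rose in all 3, Gzmb overlapped, and Rn18s-rs5 was highest in DCA mouse 1.

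Several genes of naive, stem-like and memory T cells rose from low levels. Of 29 tested, 7 rose and 3 fell (34.5% called against 9.25% of all genes), with a median of 0.17. Slamf6, a SLAM receptor that marks stem-like CD8+ cells, was at 1.74, 3.28 and 3.57 CPM untreated and 9.68, 17.7 and 13.3 CPM with DCA (2.24, SE 0.32, adjusted p = 0.00526). Actn1, alpha-actinin 1, rose from 1.04, 1.03 and 1.27 CPM to 5.61, 5.92 and 3.55 CPM (2.17, adjusted p = 0.00614). Both were called throughout, with a gap between the groups. Tcf7, which encodes TCF-1, was at 5.90, 2.65 and 7.80 CPM and 18.4, 13.1 and 13.5 CPM (1.47, SE 0.34, adjusted p = 0.0244), and the call held in 1 of 6 fits without a library. Id3, an inhibitor of E protein transcription factors, rose from 17.7, 21.4 and 18.02 CPM to 37.1, 29.4 and 46.2 CPM (0.98, adjusted p = 0.00988). The homing receptor gene Ccr7 rose from 12.5, 11.6 and 17.9 CPM to 22.7, 23.8 and 26.7 CPM (0.80, adjusted p = 0.0249, held in 1 of 6). Klf2 (2.05) and Bach2 (1.06) also rose. Il7r, the IL-7 receptor of naive and memory cells, was at 24.6, 44.3 and 32.9 CPM and 28.9, 33.97 and 29.6 CPM, overlapping between groups (adjusted p = 0.710). The memory markers Ly6c2 and Ly6a fell. Ly6c2 was at 120.1, 121 and 107 CPM and 78.6, 55.2 and 66.4 CPM (-0.80, SE 0.13, adjusted p = 0.00681), and was called throughout. Ly6a, the gene of Sca-1, was at 897, 1016 and 914 CPM and 606, 779 and 721 CPM (-0.42, adjusted p = 0.0227). Igfbp4, a growth factor binding protein of naive cells, fell from 12.6, 14.97 and 22.8 CPM to 3.55, 6.75 and 9.49 CPM (-1.35, adjusted p = 0.0325, held in 1 of 6).

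Transcription factors of effector and exhausted cells went both ways, with 4 of 20 tested higher and 2 lower (30.0% called against 9.25% of all genes). Ikzf2, which encodes Helios, rose from 4.36, 5.06 and 8.98 CPM to 24.97, 39.8 and 19.6 CPM (2.20, SE 0.32, adjusted p = 0.0056). It was called throughout. Prdm1, the gene of Blimp-1, rose from 4.53, 6.98 and 8.65 CPM to 11.6, 19.4 and 16.2 CPM (1.23, adjusted p = 0.0205, held in 2 of 6 fits), and Runx3 from 42.4, 45.9 and 38.7 CPM to 63.1, 56.9 and 59.9 CPM (0.50, adjusted p = 0.0205, held in 1). Eomes, a T-box factor of memory and cytotoxic genes, fell from 33.8, 49.3 and 33.1 CPM to 23.7, 23.8 and 25.1 CPM (-0.68, adjusted p = 0.0296, held in 1). Tbx21 and Tox were not called (adjusted p = 0.899 and 0.442).

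Of 21 inhibitory receptor genes, 3 rose and 1 fell (19.0% called against 9.25% of all genes), with a median of 0.44. Cd200, a ligand that restrains myeloid cells, was at 1.41, 1.51 and 1.03 CPM untreated and 6.13, 12.95 and 4.87 CPM with DCA (2.60, SE 0.39, adjusted p = 0.00636), and was called throughout. Tigit (6.44, 4.18 and 6.71 CPM to 14.7, 10.9 and 10.1 CPM, adjusted p = 0.0266) and Btla (1.58, 0.428 and 0.786 CPM to 2.82, 4.41 and 3.13 CPM, adjusted p = 0.0328) also rose, with calls that held in 2 and 1 of 6 fits. Entpd1, which encodes the ectonucleotidase CD39, fell from 72.8, 81.98 and 64.7 CPM to 50.6, 46.7 and 52.7 CPM (-0.55, adjusted p = 0.0173). Pdcd1, which encodes PD-1, lay at 11.98, 10.4 and 8.89 CPM and 24.4, 12.6 and 7.93 CPM, with mouse 1 alone well above the untreated range (adjusted p = 0.377). Havcr2 was at 13.4, 11.8 and 15.8 CPM and 21.2, 19.4 and 16.4 CPM (adjusted p = 0.114), and Lag3 at 3.05, 3.12 and 3.14 CPM and 3.27, 4.54 and 3.13 CPM (adjusted p = 0.659). None of these 3 was called.

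Among cytotoxic effectors, granzyme A fell and granzyme B did not pass the test. Gzma was at 6231, 8254 and 7879 CPM untreated and 4295, 3684 and 4629 CPM with DCA (-0.83, SE 0.11, adjusted p = 0.00419). Every DCA library lay below every untreated one, as in 15.4% of all genes. Gzmb was at 7292, 8642 and 7334 CPM and 6576, 8769 and 6845 CPM and overlapped (-0.07, SE 0.10, adjusted p = 0.741). Per kilobase, Gzma was at 7410 ± 1070 CPM and Gzmb at 5401 ± 534 CPM untreated, and at 4178 ± 476.5 CPM and 5151 ± 833 CPM with DCA (SD, n = 3). Fasl, a death-inducing ligand of the TNF family, fell from 200.4, 195 and 229.8 CPM to 151, 146 and 145 CPM (-0.50, adjusted p = 0.00818). Gzma and Fasl were called throughout. Gzmc, a granzyme of strongly stimulated cells, rose from 550.3, 531 and 545 CPM to 694, 710.5 and 674 CPM (0.35, adjusted p = 0.0105). The neighbouring granzymes Gzmd to Gzmg are close in sequence, and their counts can share reads. Prf1, perforin, was at 24.3, 37.9 and 31.7 CPM and 33.3, 38.6 and 31.7 CPM (adjusted p = 0.666). Lta was called lower (adjusted p = 0.0331, and 0.0716 with a term for each mouse). In all, 3 of 26 tested fell and 1 rose, or 15.4% called against 9.25% of all genes. The balance depended on the fit, with 2 lower and 4 higher with a term for each mouse and 3 of each after cyclic loess.

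Of 30 tested genes of T cell receptor signalling, 1 rose and 3 fell, or 13.3% called against 9.25% of all genes. Lck, the kinase that starts T cell receptor signalling, fell from 888, 814 and 805 CPM to 588, 607 and 624 CPM (-0.46, SE 0.07, adjusted p = 0.00616) and was called throughout. The adaptor gene Lat was called lower (adjusted p = 0.0265, and 0.0511 with a term for each mouse), as was Lcp2 (-0.42, adjusted p = 0.0283). Malt1, the protease of the NF-kB branch, rose from 24.7, 30.2 and 27.2 CPM to 48.3, 54.6 and 41.4 CPM (0.81, adjusted p = 0.00847). In the fit with a term for each mouse 2 rose and 2 fell, and after cyclic loess 2 and 1. Of 24 immediate early genes (8.33% called against 9.25% of all genes), Myc fell and Jund was called higher (adjusted p = 0.0455, and 0.0544 with a term for each mouse). Of 33 cytokine receptor and SOCS genes (6.06% called against 9.25% of all genes), 0 rose and 2 fell. These were the STAT5 feedback inhibitor Socs2, from 96.2, 72.6 and 81.3 CPM to 57.8, 46.7 and 58.2 CPM (-0.62, adjusted p = 0.0183), and Socs1 (adjusted p = 0.0357, and 0.0548 with a term for each mouse). Tnfsf11, which encodes RANKL, fell from 14.6, 12.9 and 11.2 CPM to 4.67, 5.02 and 6.12 CPM (-1.30, SE 0.21, adjusted p = 0.0068) and was called throughout, while Fas (1.35, adjusted p = 0.0296) and Tnfrsf8 (1.24, adjusted p = 0.0373) rose. With Tnfsf9, called higher (adjusted p = 0.035, and 0.0508 with a term for each mouse), these made 3 rises and 1 fall of 19 tested genes of the TNF superfamilies. That is 21.1% called against 9.25% of all genes.

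Integrins and natural killer receptors gave further rises, of which Itgb3 and Klra3 were called throughout. Itgb3, the beta 3 integrin, was at 5.53, 6.05 and 9.22 CPM untreated and 24.4, 27.2 and 16.1 CPM with DCA (1.70, SE 0.25, adjusted p = 0.00611). Itgb7, the subunit of gut-homing integrin, rose from 91.8, 73.4 and 100.4 CPM to 142, 113 and 146 CPM (0.60, adjusted p = 0.0218), while Itgb1, the common beta 1 chain, fell from 131, 145 and 119 CPM to 92.9, 65.8 and 73.3 CPM (-0.77, adjusted p = 0.00833). Of 27 tested chemokine and homing genes, 4 rose and 1 fell, or 18.5% called against 9.25% of all genes. Of 17 tested natural killer receptor genes, 3 rose and 0 fell, or 17.6% called against 9.25% of all genes. With a term for each mouse 6 rose. Klra6, 1 of the 3, had 0 counts in the untreated libraries and could pass the filter on counts only through the DCA group. Klra3, a Ly49 receptor, was at 0.637, 0.680 and 0.212 CPM and 5.68, 9.15 and 2.99 CPM (3.53, SE 0.52, adjusted p = 0.00611). The adaptor gene Tyrobp, which encodes DAP12, rose from 1.81, 1.34 and 0.756 CPM to 3.34, 6.11 and 6.01 CPM (1.99, adjusted p = 0.0134). Natural killer cell markers summed to 38.3 to 59.1 CPM untreated and 32.8 to 37.2 CPM with DCA, most of it Eomes, with Klra8 at 0 counts. Ly49 genes are near copies of each other, so the split of reads among them is uncertain.

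Interferon-inducible genes fell in part. Of 56 tested, 9 fell and 1 rose (17.9% called against 9.25% of all genes), with a median of -0.23. Ifit1, which blocks translation of viral RNA, had 568, 338 and 442 counts untreated and 0, 9 and 17 counts with DCA. This is 19.1, 8.52 and 13.4 CPM against 0, 0.288 and 0.591 CPM (-5.52, SE 0.63, adjusted p = 0.00333), the largest fall of a listed gene. Its neighbour Ifit3 (-1.94) was not called, and Ifit2 was at 0.49. Gbp4, a guanylate-binding GTPase, was at 229.6, 192 and 199.6 CPM and 108, 137 and 139 CPM (-0.70, adjusted p = 0.0075). Ifit1 and Gbp4 were called throughout. Gbp7, of the same family, fell from 189.9, 181 and 205 CPM to 123, 144 and 144 CPM (-0.49, adjusted p = 0.0114). Iigp1, an immunity-related GTPase, fell from 52.1, 64.02 and 33.6 CPM to 6.37, 18.04 and 24.4 CPM (-1.62, SE 0.39, adjusted p = 0.0285), with the smallest difference in mouse 3, and its call held in 3 of 6 fits without a library. Ifi203 rose from 15.1, 9.04 and 16.2 CPM to 30.4, 20.3 and 32.05 CPM (1.04, adjusted p = 0.0252). Isg15 and Irf7, which respond broadly to interferon, were not called (adjusted p = 0.393 and 0.632). The number called lower was 2 without untreated replicate 1, 3 without untreated replicate 2, 4 without DCA replicate 1 or 2, 6 without DCA replicate 3 and 9 without untreated replicate 3. The GTPase families have near copies among which reads can be split.

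Promoters of the interferon list were searched for the core of the interferon-stimulated response element, GAAA, any 2 bases and GAAA, on either strand. It occurred in 26 of 43 members in the table (60.5%) against 3.99% of all genes, and in 5 of 7 that were called lower. Bst2 encodes tetherin, which holds budding virus at the membrane, and Igtp and Irgm1 encode immunity-related GTPases. The 150 bases before the start are shown for the 5, with the matches in capitals, since these are the genes that fell and hold the motif. Bst2 lies at chr8:71537473-71537622 (minus strand), Gbp7 at chr3:142530186-142530335 (plus), Ifit1 at chr19:34640739-34640888 (plus), Igtp at chr11:58199406-58199555 (plus) and Irgm1 at chr11:48871421-48871570 (minus), all in GRCm38.p6.
Bst2: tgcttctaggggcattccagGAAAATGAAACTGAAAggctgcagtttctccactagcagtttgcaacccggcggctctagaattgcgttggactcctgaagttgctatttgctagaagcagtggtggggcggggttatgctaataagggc
Gbp7: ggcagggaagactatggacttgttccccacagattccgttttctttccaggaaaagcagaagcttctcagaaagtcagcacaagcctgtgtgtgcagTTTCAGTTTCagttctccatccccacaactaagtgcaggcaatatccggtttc
Ifit1: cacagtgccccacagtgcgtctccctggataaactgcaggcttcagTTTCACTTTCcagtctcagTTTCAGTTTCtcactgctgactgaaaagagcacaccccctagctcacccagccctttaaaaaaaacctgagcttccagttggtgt
Igtp: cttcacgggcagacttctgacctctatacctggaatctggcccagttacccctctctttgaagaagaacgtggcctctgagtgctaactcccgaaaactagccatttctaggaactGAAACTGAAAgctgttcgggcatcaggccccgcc
Irgm1: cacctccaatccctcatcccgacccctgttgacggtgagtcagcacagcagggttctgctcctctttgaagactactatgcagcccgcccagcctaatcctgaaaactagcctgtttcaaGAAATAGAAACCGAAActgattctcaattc

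The matches overlap each other in Bst2 and in Irgm1, and lie apart in Ifit1, at 104 and 85 bases before the start. Ifit1 had the largest change of the 5, and Bst2 was at -0.48, Igtp at -0.42 (adjusted p = 0.0801 with a term for each mouse) and Irgm1 at -0.54. The motif was also present in members that were not called, among them Isg15 and Ifit3. In antigen presentation by MHC class I (8.70% called against 9.25% of all genes), 2 of 23 tested genes fell and 0 rose. Besides Pdia3 this was the immunoproteasome subunit Psmb8, from 868, 892 and 806 CPM to 675, 632 and 682 CPM (-0.37, adjusted p = 0.0122).

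The largest rises outside these lists included secreted and membrane proteins. Serpine2, a secreted inhibitor of serine proteases, was at 59.7, 82.7 and 66.2 CPM untreated and 201, 294 and 198 CPM with DCA, with all DCA libraries over 2 times the highest untreated one (1.73, SE 0.17, adjusted p = 0.00316). The tetraspanin gene Cd81 rose from 3.89, 6.53 and 3.14 CPM to 17.03, 32.02 and 19.5 CPM (2.33, SE 0.31, adjusted p = 0.00456), highest in mouse 2. Cd63, a tetraspanin of lysosomes and exosomes, rose from 1.88, 3.85 and 3.08 CPM to 7.07, 24.02 and 12.4 CPM (2.30, adjusted p = 0.0108), with the same order. Serpine2, Cd81, and below them Selenop, Renbp and Ociad2, were called throughout. Of 16 tested tetraspanin genes, a family listed after the values were seen, 6 rose and 0 fell, among them Cd9 (1.09) and Cd53 (0.40, adjusted p = 0.0544 with a term for each mouse). Of 6 tested S100 calcium-binding genes, likewise listed afterwards, 5 rose and 0 fell, led by S100a11 (1.00) and S100a1 (0.94). Selenop, a selenium transport protein, rose from 4.39, 7.96 and 7.26 CPM to 21.6, 20.2 and 16.02 CPM (1.56, adjusted p = 0.00657), and Gsn, the actin-severing protein gelsolin, from 3.15, 6.02 and 6.92 CPM to 15.1, 25.7 and 12.8 CPM (1.73, adjusted p = 0.0119). Renbp (1.69), Ociad2 (1.75) and Klhl24 (1.55) were also among the 15 largest rises. Markers of other cells moved partly in the same direction. Macrophage and monocyte markers summed to 10.0 to 16.2 CPM untreated and 15.5 to 40.0 CPM with DCA, with 6 of 10 at 0 counts and none of 3 tested called. The B cell receptor gene Cd79b rose from 13.2, 18.7 and 12.9 CPM to 26.6, 33.2 and 37.4 CPM. B cell markers summed to 242 to 376 CPM and 368 to 438.5 CPM, most of it Ighm, with 5 of 10 at 0 counts. Dendritic cell markers summed to 101 to 142 CPM and 157 to 210 CPM, nearly all of it Batf3, with Clec9a and Cd209a at 0 counts. Their part in these rises was not tested.

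Among the largest falls were Fgl2, a secreted immune regulator of the fibrinogen family, and Gem, a small GTPase that inhibits calcium channels. Fgl2 was at 96.1, 91.5 and 86.01 CPM untreated and 45.1, 40.04 and 48.5 CPM with DCA (-1.03, SE 0.11, adjusted p = 0.00316). Gem fell from 49.9, 63.8 and 52.03 CPM to 22.1, 29.2 and 24.7 CPM (-1.13, SE 0.15, adjusted p = 0.00419). The groups were far apart in both, and both were called throughout. Hbegf, a ligand of the epidermal growth factor receptor, fell from 36.2, 46.7 and 34.2 CPM to 19.9, 14.5 and 23.4 CPM (-1.02, adjusted p = 0.0115). Epdr1 (-1.33, called throughout), Hemgn (-1.07), Ifrd2 (-1.03), Cnnm4 (-1.03) and Tpst1 (-1.03) also fell. The most abundant genes that fell were Pfn1, Gzma, H3f3b, Eif5a and Hmgn2. Pfn1, which encodes the actin-binding protein profilin 1, was at 9103, 9162 and 8725 CPM and 5240.4, 5984 and 6746 CPM (-0.59, SE 0.08, adjusted p = 0.00456). H3f3b, a gene of the replacement histone H3.3, was at 7087, 7225 and 6972 CPM and 5402, 4935 and 5117 CPM (-0.46, SE 0.05, adjusted p = 0.00333). Both were called throughout.

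Antioxidant and lysosomal genes gave mostly rises among their calls. Of 39 antioxidant genes, 5 rose and 2 fell, or 17.9% called against 9.25% of all genes. The peroxiredoxin gene Prdx2 rose from 229, 207 and 245 CPM to 321, 329 and 306 CPM (0.49, SE 0.08, adjusted p = 0.0078) and was called throughout. Mgst3, a membrane glutathione transferase, rose from 28.1, 28.4 and 35.8 CPM to 77.8, 58.3 and 49.4 CPM (1.01, adjusted p = 0.00839), and Gstm1 from 0.906, 0.655 and 1.78 CPM to 3.90, 5.15 and 5.07 CPM (2.08, adjusted p = 0.0121). Txn2, the mitochondrial thioredoxin, fell from 365, 345 and 301 CPM to 229, 255 and 271 CPM (-0.42, adjusted p = 0.0221). Of 35 lysosome and autophagy genes, 4 rose and 0 fell, or 11.4% called against 9.25% of all genes. The protease gene Ctss, 1 of those that rose, went from 28.04, 28.5 and 31.6 CPM to 43.5, 54.98 and 48.6 CPM (0.74, adjusted p = 0.00862).

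Some genes were counted in 1 group only, or nearly so. Klra6 had 0 counts in the untreated libraries and 15, 12 and 23 with DCA, at least 20.2-fold higher against a floor of 3 counts over the untreated group. Sfmbt2, a Polycomb-related gene, had 0 counts untreated and 30, 60 and 21 with DCA (at least 44.9-fold higher), Plcd1 33, 12 and 27 (at least 29.1-fold) and Dnajc6 13, 32 and 22 (at least 27.1-fold). Npdc1 had 2, 0 and 0 counts against 51, 26 and 43. Rnf180 had 13, 15 and 38 counts untreated and 0 with DCA, at least 18.1-fold lower. All of these were called, Sfmbt2 and Npdc1 throughout, at levels under 2 CPM. A gene with 0 counts in 1 group could pass the filter on counts only through the other group. Its call and its fold bound therefore describe the counts and are no further support.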

How the data were processed

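Bulk RNA sequencing was analysed from a table of whole-number gene counts that the authors deposited, with a column of gene lengths. Reads were trimmed with fastp 0.23.2 and aligned with STAR 2.7.10a to GRCm39, per the submitters' processing notes. The counter, annotation and strand setting were not given in the sources used here. The 6 libraries were mapped to groups by description and title. Symbols came from the authors' table for 15067 of 56748 genes and from a reference table of names for 37502, and 4179 had none.

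Counts were filtered with filterByExpr, scaled by TMM and tested with edgeR 4.0.16 (R 4.3.3) by quasi-likelihood with group as the only term, and p-values were adjusted by Benjamini-Hochberg over 13526 genes. CPM values use TMM-scaled totals, without a prior count. SE is the size of a log2 fold change over the square root of its F statistic. The script was tested on simulated counts. Alternatives were other scalings, limma 3.58.1, limma-voom, DESeq2 1.42.0, other filters, a replicate block and leaving out each library. The 2 libraries with the same mouse number come from 1 mouse, per the labels, so they are paired by design. Their deviations from the group means correlated at 0.0887, 0.0780 and -0.0039 in mice 1 to 3. The second principal component nevertheless placed the 2 libraries of each mouse close together. Chi-square values per degree of freedom between libraries of a group (21.5 to 29.8) were far above counting noise.

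Genes were named by rule: the 15 largest rises and falls above a mean log2 CPM of 3, a fixed set, up to 3 called members per list and direction, the 5 most abundant calls and the 5 largest changes at lower levels. Other list members are given by fold change only, and those singled out were chosen after their values were seen. The members, lists and tests were chosen with earlier results of these data known, and 15 families were assembled after the values were seen. The p-values of the fit with group as its only term measure the spread between the 3 libraries of a group. They come from 1 experiment and leave out the pairing by mouse. Only those with a term for each mouse take the pairing into account. Some genes are not reported here.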

Additional observations from a re-analysis of the deposited data

How the results depend on the processing

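The counts were recomputed under each alternative; DESeq2 and cyclic loess with limma change the scaling and the test together. DESeq2 called 2171 genes, 927 higher and 1244 lower, and 1877 were called without a filter on low counts, 886 of them higher and 991 lower. Requiring an absolute log2 fold change of 1 left 291, 249 higher and 42 lower. The other settings stayed within 1.5 times of the 1251 genes: 1262 with DESeq2's size factors in edgeR, 1360 with limma-voom, 1361 with limma on TMM-scaled values, 1095 after cyclic loess, 1515 at 5 CPM or more in 3 libraries and 1242 without mitochondrial genes. Leaving out 1 library gave 213 to 1156 genes, 97 to 525 higher and 116 to 631 lower; the fewest were called without untreated replicate 1 and the most without untreated replicate 3. Such a fit has fewer samples by construction. With the replicate block, 1045 genes were called, 515 higher and 530 lower, and 947 of them were shared with the fit without it. The pairing ended 19 of the calls among genes named by rule and changed no other of them, and blocked p-values stand beside those discussed. No called gene named by rule turned its direction under any of these settings. Depth set a floor of 0.0731 to 0.107 CPM per library (3 counts), under which levels rest on 1 or 2 counts.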
